A study of Mus musculus with 6 samples.

Results

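Skeletal muscle lineage genes were examined in primary mouse embryonic fibroblasts that carried or lacked exon 2 of Cas (p130Cas, gene symbol Bcar1), a docking protein of cell adhesions. The 10 genes were the myogenic transcription factors Myf5, Myod1 and Myog, the intermediate filament gene Des, the myosin light chains Myl1 and Myl4, the troponin T genes Tnnt1, Tnnt2 and Tnnt3, and the acetylcholine receptor subunit Chrna1. They were chosen by symbol, with the muscle actins left out, and every probe set annotated to one of these symbols was taken, which gave 15 probe sets out of 34945 with 1 gene symbol and 10 of 18193 named genes. RNA came from homozygous cells (Cas exon 2 deleted on both alleles), heterozygous cells (1 intact allele) and wild-type cells, with 2 embryos and 2 arrays for each genotype. All were taken at 12.5 days post coitum from crosses of heterozygotes. The cells were grown in medium with fetal calf serum, and the labels name the B6 background for all arrays but wild type 1. The head and the inner organs of each embryo had been removed for genotyping, so each culture is the mixed outgrowth of the remaining body, and the cells were not sorted.

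Myogenic cells of the embryo are specified by Myf5 and Myod1 and are carried into differentiation by Myog, which together with its relatives switches on the genes of the contractile apparatus. The thin filament is then regulated by troponin, in which troponin T binds tropomyosin, and the thick filament carries myosin light chains. Fibroblasts cultured from embryo bodies can contain a few myogenic cells, because limb and trunk muscle precursors are in the tissue that is dissociated. In bulk RNA, fewer cells of a type and less RNA per cell cannot be told apart.

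Each array gives a fluorescence intensity per probe set, that is, per set of oligonucleotides designed against 1 transcript. Probe sets bind with unequal strength, so their levels do not rank different genes by RNA amount. The median intensity of an array was between 21.9 and 27.3, and the deposited table gives no detection call. Levels below are intensities as deposited, and differences are on the scale log2(intensity + 1.78) after quantile normalization, which understates changes of dim probe sets. The intensity filter kept the upper 50% of probe sets by mean log2 level, and its lowest mean corresponds to an intensity of 22.1. The labelled cell type had its markers, since all 10 fibroblast markers, among them Col1a1, Col1a2 and Vim, passed the filter. Both Bcar1 probe sets had a log2 difference of -0.32 (SE 0.31 and 0.29, limma adjusted p = 1 for each) for homozygous against the mean of the other genotypes. Against heterozygous cells alone the differences were -0.002 and -0.14. Wild type 1 was the highest array for both, at 711 and 304, against 268 to 366 and 145 to 218 on the other arrays. Whether these probe sets cover exon 2 is not known here, so they do not test the deletion. Sex-linked genes followed the genotype between homozygous and heterozygous cells and differed between the wild-type arrays. The X-inactivation RNA Xist was at 11.8 and 34.0 in homozygous cells, 1175 and 1384 in heterozygous cells, and 478 in wild type 1, and wild type 2 lay between the homozygous arrays. The Y-linked gene Eif2s3y was at 423 and 371 in homozygous cells, 0.64 and 1.5 in heterozygous cells, and 10.5 and 301 in wild-type cells. By these genes, genotype and embryo sex cannot be told apart between homozygous and heterozygous cells, while wild type 2 had the pattern of the homozygous arrays and wild type 1 that of the heterozygous ones. The comparison of homozygous cells with the mean of the other genotypes was therefore not balanced for embryo sex.

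Most of the muscle genes were dim in all 3 genotypes. The brightest probe set of a gene passed the intensity filter for 3 of the 10 genes, Des, Myl4 and Tnnt2, whereas 62.5% of all named genes passed. Of the 10 genes, 6 lay below the median of the array on every array, namely Myf5, Myod1, Myog, Myl1, Tnnt1 and Tnnt3, and 1, Myl4, lay above it on every array. The filter divided the set between the second Tnnt2 probe set, which lay above 51.5% of all probe sets by its mean, and Chrna1, which lay above 41.1%.

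**Figure D1:**
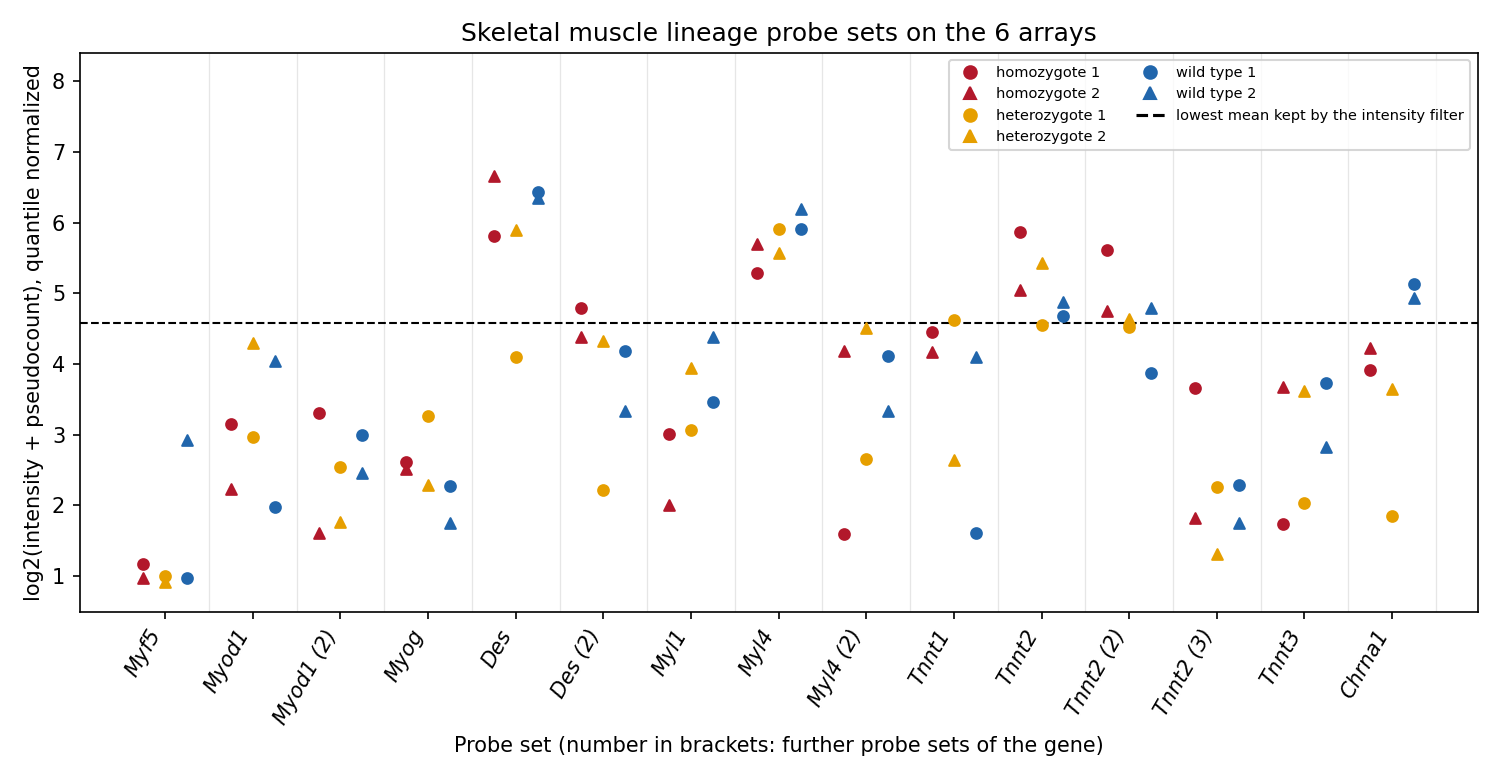
Level of each of the 15 probe sets (horizontal axis) on the 6 arrays, as quantile-normalized log2(intensity + pseudocount) (vertical axis). Colours give the genotype, symbols the embryo, and the dashed line the lowest mean kept by the intensity filter. Des, Myl4 and Tnnt2 have their brightest probe sets around or above the line, and Myf5 lies near the bottom of the scale on 5 of the 6 arrays.

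Of the myogenic factors, Myf5 was near the floor of the arrays. It was listed at 0.47 and 0.16 in homozygous cells, 0.23 and 0.12 in heterozygous cells, and 0.19 and 5.4 in wild-type cells. Of the 6 arrays, wild type 2 alone exceeded the pseudocount, and the wild-type arrays overlapped those of both other genotypes. Myod1, the other specification factor, was at 7.6 and 2.4 in homozygous cells, 6.5 and 19.8 in heterozygous cells, and 2.3 and 13.9 in wild-type cells. Its highest value was in heterozygote 2 and its lowest in wild type 1, and the embryos were 1.33 log2 units apart in heterozygous and 2.07 in wild-type cells, against 0.94 between the homozygous and heterozygous means. A second Myod1 probe set, of a class whose probes can match other transcripts as well, ran differently over the arrays (Pearson r = -0.21 with the first, over 6 arrays), with 8.6 and 1.1 in homozygous, 4.4 and 1.7 in heterozygous and 6.3 and 3.4 in wild-type cells. Myog, the differentiation factor, was at 4.7 and 3.3 in homozygous cells, 8.4 and 3.3 in heterozygous cells, and 3.2 and 1.5 in wild-type cells. The log2 differences for homozygous against the mean of heterozygous and wild-type cells were -0.39 (SE 0.57) for Myf5, -0.62 (SE 0.73) for Myod1 and 0.17 (SE 0.37) for Myog. All 3 genes were below the filter, and with all probe sets tested each had a limma adjusted p of 1.

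Des encodes desmin, the intermediate filament of muscle cells, which smooth muscle also makes. Its brightest probe set was at 58.7 and 92.4 in homozygous cells, 16.04 and 66.8 in heterozygous cells, and 83.5 and 72.6 in wild-type cells. Heterozygote 1 stood below the other 5 arrays, and a second Des probe set was also lowest there, at 3.2, against 20.3 in heterozygote 2. The arrays of the second probe set were at 28.0 and 17.1 in homozygous cells and 16.2 and 7.8 in wild-type cells. The first Des probe set had a log2 difference of 0.54 (SE 0.52, limma adjusted p = 1) for homozygous cells against the mean of the other genotypes, which was 0.09 without heterozygote 1, 0.12 without homozygote 2 and 0.98 without heterozygote 2. Against heterozygous cells it was 1.24 (SE 0.60, limma adjusted p = 1), and without heterozygote 1 it was 0.34. Heterozygous against wild-type cells gave -1.40 (SE 0.60, limma adjusted p = 0.838), and without heterozygote 1 this was -0.51. The 8 smooth muscle markers, which include Cnn1 and Tagln, summed to between 6174 and 11806 in homozygous, 7494 and 8829 in heterozygous and 9768 and 13346 in wild-type cells, and 7 of the 8 passed the filter. Their part in the Des values was not tested.

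Of the myosin light chains, Myl4, the light chain of embryonic skeletal muscle and of the atrium, was at 40.6 and 45.1 in homozygous cells, 58.8 and 52.6 in heterozygous cells, and 56.2 and 64.5 in wild-type cells. It was the steadiest gene of the set, with a range of 0.90 log2 units over the 6 arrays, and on the deposited scale the homozygous arrays lay below the other 4. After normalization homozygote 2 (5.69) lay above heterozygote 2 (5.57), so the groups overlapped, and the log2 difference was -0.40 (SE 0.23, limma adjusted p = 1). Against wild-type cells the difference was -0.56 (SE 0.26, limma adjusted p = 0.973). A second Myl4 probe set, below the filter, spread more widely, with 1.3 and 14.6 in homozygous, 4.9 and 23.4 in heterozygous and 15.4 and 7.8 in wild-type cells.

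Myl1, the light chain of fast skeletal fibres, was at 6.7 and 1.9 in homozygous cells, 7.1 and 14.9 in heterozygous cells, and 9.2 and 17.9 in wild-type cells. Both homozygous arrays lay below the other 4, but all were below the filter. The log2 difference was -1.20 (SE 0.48, limma adjusted p = 1 with all probe sets tested), and it shrank to -0.46 with a pseudocount of 16. Homozygote 1 and heterozygote 1 were close, at 3.01 and 3.06 log2 units, while the homozygous arrays were 0.99 apart.

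Of the troponin T genes, Tnnt2, which is expressed in heart and in embryonic skeletal muscle, was the one above the filter. Its brightest probe set was at 60.7 and 28.2 in homozygous cells, 22.3 and 47.3 in heterozygous cells, and 23.3 and 25.5 in wild-type cells. The second was at 51.1 and 22.6 in homozygous cells, 21.9 and 25.7 in heterozygous cells, and 12.8 and 24.2 in wild-type cells. Another, below the filter, was at 11.3 and 1.5 in homozygous, 3.3 and 0.74 in heterozygous and 3.3 and 1.5 in wild-type cells. All 3 probe sets were highest in homozygote 1. The log2 differences were 0.57 (SE 0.35) and 0.72 (SE 0.36) for the first and second probe sets, each with a limma adjusted p of 1. Without homozygote 1 the first was 0.16. Markers of other cells were also unevenly spread over the homozygous arrays, since the 12 macrophage markers summed to 14515 in homozygote 1 and 7026 in homozygote 2, against 5174 to 5365 in heterozygous and 3112 to 6428 in wild-type cells. Of the 12 heart markers 4 passed the filter. Myh6, Myl7 and Tnni3, which encode heart contractile proteins, were among those below it. After normalization homozygote 1 was the highest array for 1 of the 12, Tnni3, and the lowest for 2, Nkx2-5 and Nppb. The summed heart markers ranged from 630 to 682 in homozygous, 552 to 654 in heterozygous and 698 to 2654 in wild-type cells, and the last value came mostly from Ankrd1, at 2149 in wild type 1. The part of these cells in the Tnnt2 values was not tested.

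Tnnt1, the slow skeletal form, was at 21.2 and 14.4 in homozygous cells, 23.5 and 4.8 in heterozygous cells, and 1.4 and 14.4 in wild-type cells. The homozygous arrays were close to each other, while embryos of each other genotype were 1.98 and 2.48 log2 units apart in heterozygous and wild-type cells. Its log2 difference was 1.07 (SE 0.87), and it was 0.45 without wild type 1 and 0.57 without heterozygote 2. Tnnt3, the fast skeletal form, was at 1.6 and 9.7 in homozygous cells, 2.5 and 11.5 in heterozygous cells, and 11.4 and 4.9 in wild-type cells, with a log2 difference of -0.35 (SE 0.74). Single arrays set its sign, since it was 0.62 without homozygote 1, 0.05 without heterozygote 2 and -1.33 without homozygote 2. The embryos of each genotype thus spanned much of the range of Tnnt3. For both genes the limma adjusted p was 1 with all probe sets tested.

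Chrna1 encodes the ligand-binding subunit of the muscle acetylcholine receptor. It was at 14.0 and 15.1 in homozygous cells, 2.0 and 11.7 in heterozygous cells, and 32.0 and 26.7 in wild-type cells. The 3 genotypes did not overlap, in the order heterozygous, homozygous and wild type from low to high. For single pairs, 18.4% of all probe sets had heterozygous arrays below wild-type ones, 16% homozygous below wild-type and 14.2% homozygous above heterozygous. The share of probe sets with all 3 genotypes apart was not computed. Chrna1 was below the filter, and with all probe sets tested heterozygous against wild-type cells gave -2.29 (SE 0.62, unadjusted p = 0.0128, limma adjusted p = 0.656). It was -1.40 without heterozygote 1, -3.16 without heterozygote 2 and -1.11 with a pseudocount of 16. Homozygous against wild-type cells gave -0.96 (SE 0.62, limma adjusted p = 0.972), and homozygous against heterozygous cells 1.32 (SE 0.62, limma adjusted p = 1), which was 0.43 without heterozygote 1 and 0.51 with a pseudocount of 16. The group order was thus not backed by a call in any comparison.

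In RefSeq promoter windows on GRCm38.p6, which span 250 bases before to 50 after a gene's start, 8 of the 10 genes were found, with 9 windows. The E-box CANNTG, the core that myogenic factors bind as partners of E proteins, was searched on both strands. It was in 7 of the 9 windows and in 72.3% of all 32851 windows of this length. The E-box CAGCTG, one of its forms, was in 4 of the 9, against 16.3% of all windows. Matches to the patterns searched for the MEF2 motif and the CArG box, the element of serum response factor, were in 0 of the 9. Of all windows, 0.557% and 1.63% had such matches. Sites that depart from these patterns were not searched, so the 0 does not show that the windows, that of Myog included, lack such elements. The 4 windows shown belong to the differentiation factor Myog, to Des and Tnnt2, whose brightest probe sets passed the filter, and to Chrna1, whose arrays separated by genotype, and capitals mark every CANNTG.
Myog promoter, chr1:134289754-134290053, plus strand: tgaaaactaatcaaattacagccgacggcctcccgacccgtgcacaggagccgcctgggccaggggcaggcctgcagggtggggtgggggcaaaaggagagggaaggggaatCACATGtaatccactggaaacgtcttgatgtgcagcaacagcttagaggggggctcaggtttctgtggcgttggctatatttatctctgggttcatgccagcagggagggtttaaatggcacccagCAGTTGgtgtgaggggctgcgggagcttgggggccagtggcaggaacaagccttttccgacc
Des promoter, chr1:75360042-75360341, plus strand: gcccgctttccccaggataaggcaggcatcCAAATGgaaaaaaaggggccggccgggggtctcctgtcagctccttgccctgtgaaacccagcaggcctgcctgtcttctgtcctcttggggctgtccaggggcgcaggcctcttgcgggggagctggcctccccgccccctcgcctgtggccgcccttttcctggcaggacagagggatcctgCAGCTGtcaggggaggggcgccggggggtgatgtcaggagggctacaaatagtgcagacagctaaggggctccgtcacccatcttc
Tnnt2 promoter, chr1:135836084-135836383, plus strand: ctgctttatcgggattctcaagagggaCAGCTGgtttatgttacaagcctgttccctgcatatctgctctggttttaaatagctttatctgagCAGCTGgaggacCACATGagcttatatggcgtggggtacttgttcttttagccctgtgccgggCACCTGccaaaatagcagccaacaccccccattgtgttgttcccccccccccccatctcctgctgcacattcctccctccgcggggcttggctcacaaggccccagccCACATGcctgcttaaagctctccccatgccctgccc
Chrna1 promoter, chr2:73580289-73580588, minus strand: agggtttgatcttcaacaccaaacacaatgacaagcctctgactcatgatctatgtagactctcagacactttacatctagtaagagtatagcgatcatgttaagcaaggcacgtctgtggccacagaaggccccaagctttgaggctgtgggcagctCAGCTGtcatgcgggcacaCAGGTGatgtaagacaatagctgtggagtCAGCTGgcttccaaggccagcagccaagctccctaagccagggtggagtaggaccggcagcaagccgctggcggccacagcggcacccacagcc
The Tnnt2 window shown held 5 E-boxes, of which 2 were CAGCTG, Chrna1 held 3, of which 2 were CAGCTG, Des held 2, of which 1 was CAGCTG, and Myog held 2, neither of them CAGCTG. Another Tnnt2 window, not shown, held 2 E-boxes, neither of them CAGCTG. The CAGCTG of Des began 36 bases before the start, and those of Chrna1 began 92 and 44 bases before it. The windows of Myf5 and Myl4 held 0 E-boxes and are not shown, although the brightest probe set of Myl4 also passed the filter.

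The stated comparison was of homozygous cells with both other genotypes. Limma called 0 of the 4 tested probe sets of the muscle genes, and 0% of all 22519 tested probe sets. At an unadjusted p under 0.05 there were 0 of the 4, against 2.49% of all tested. With all probe sets tested it again called 0 of 15, and 0 had an unadjusted p under 0.05, where 4.9% of all probe sets had one. After normalization both homozygous arrays lay above the other 4 for 1 of the 15 probe sets, the second of Des, where 4.72% of all probe sets did, and below them for 1, that of Myl1, where 5.37% did. For Des this rests on a narrow gap, 4.39 in homozygote 2 against 4.33 log2 units in heterozygote 2. As deposited these arrays were in the other order, at 17.1 and 20.3. Of the 10 genes 5 were higher and 5 lower in homozygous cells by the sign of the difference, with a median log2 difference of -0.09, against -0.02 over all 18193 genes. The largest gap between 2 embryos of one genotype exceeded the size of the difference for 8 of the 10 genes. The largest of several gaps between single arrays tends to exceed a difference of means even without a genotype effect. The share of all genes for which it did was not computed, so the count says nothing particular to these genes.

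**Figure D2:**
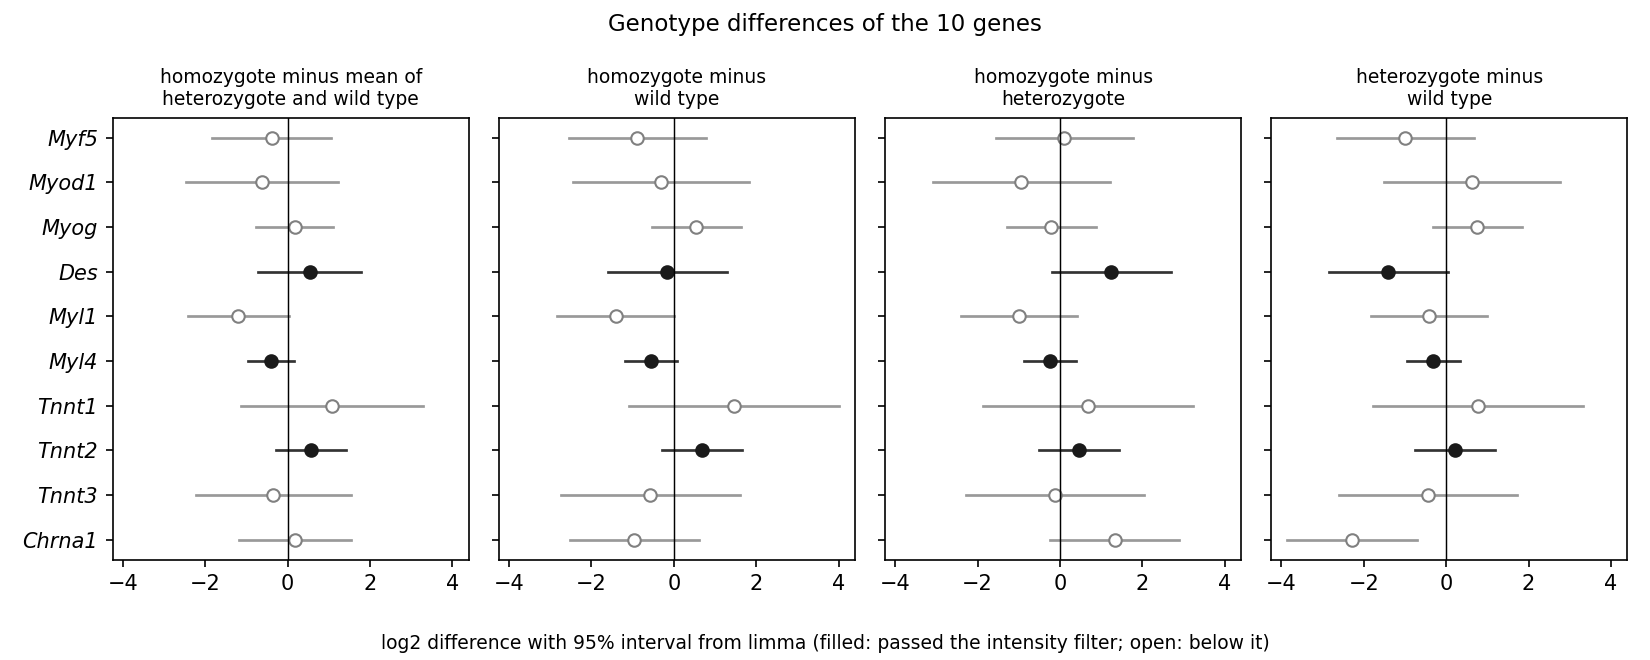
Log2 difference (horizontal axis) of the brightest probe set of each gene in the 4 genotype comparisons, with 95% intervals from limma. Filled points passed the intensity filter and open points did not. Every interval includes 0 except that of Chrna1 for heterozygous against wild-type cells, from -3.85 to -0.72, which did not pass after adjustment.

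The comparisons with single genotypes share arrays with each other and with the stated one. For homozygous against wild-type cells limma called 0 of 4 tested probe sets and 0% of all tested. At an unadjusted p under 0.05 there were 0 of the 4, against 3.8% of all tested, and 0 of the 15 without the filter, against 5.48%. The median log2 difference of the 10 genes was -0.44, against -0.03 over all genes, and 7 of the 10 were lower. The arrays did not overlap for 7 of the 15 probe sets, 4 above and 3 below, where 14.8% and 16% of all probe sets were above and below. Those above were Myog, Tnnt1, the second of Des and the first of Tnnt2, and those below Myl1, Chrna1 and the first of Myl4. Of these, only those of Tnnt2 and Myl4 passed the filter. For Tnnt1 the gap was narrow, 4.17 in homozygote 2 against 4.09 log2 units in wild type 2. Against wild type 2, which had the same sex-linked pattern, the log2 difference from homozygous cells was -0.12 for Des, -0.70 for Myl4, 0.58 for Tnnt2, -1.88 for Myl1 and -0.87 for Chrna1. It was -1.86 for Myf5, -1.36 for Myod1, 0.81 for Myog, 0.22 for Tnnt1 and -0.12 for Tnnt3. With both wild-type arrays Myf5 was -0.89, Myod1 -0.31 and Tnnt1 1.46. For homozygous against heterozygous cells limma called 0 of 4 and 0% of all tested. At an unadjusted p under 0.05 there were 0 of the 4, against 2.17%, and 0 of the 15 without the filter, against 4.6%. The median was -0.01, against -0.01 over all genes. Here 3 probe sets were above and 1 below without overlap after normalization, where 14.2% and 14.5% of all probe sets were. As deposited, the second probe set of Des overlapped, at 17.1 in homozygote 2 and 20.3 in heterozygote 2. So did the second of Tnnt2, at 22.6 and 25.7 on the same arrays.

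For heterozygous against wild-type cells limma called 0 of 4 and 0% of all tested. At an unadjusted p under 0.05 there were 0 of the 4, against 5.26% of all tested. With all probe sets tested, 1 of 15, that of Chrna1, had an unadjusted p under 0.05, where 5.89% of all probe sets had one. The median of the 10 genes was -0.37, against -0.01 over all genes, and 6 of the 10 were lower. Des was at 16.04 and 66.8 in heterozygous cells, against 83.5 and 72.6 in wild-type cells, so it was 1 of 3 probe sets below without overlap after normalization, with those of Myl4 and Chrna1, where 18.4% of all probe sets were. For Myl4 this rests on a narrow gap, 5.90 in heterozygote 1 against 5.91 log2 units in wild type 1, and as deposited these arrays overlapped, at 58.8 and 56.2. Only that of Myog was above without overlap, where 17.4% of all probe sets were.

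No common profile of the 10 genes was seen over the arrays, but 7 of them lay below the filter. For pairs with such dim probe sets, a low r cannot show that a shared profile is absent. Of the 45 pairs of genes, 24 had a Pearson r above 0 and 21 below, with a median of 0.01 and a range of -0.87 to 0.93 over 6 arrays. Among the genes that passed the filter, Des and Myl4 had an r of 0.01, Des and Tnnt2 0.24, and Myl4 and Tnnt2 -0.85. Probe sets of a single gene had an r of 0.73 for Des, 0.79 for the first and second of Tnnt2, 0.32 for Myl4 and -0.21 for Myod1. No array held most of the highest values, since wild type 2 was highest for 3 genes, wild type 1 and heterozygote 1 for 2 each, and each other array for 1. Heterozygote 1 was lowest for 3 genes, Des, Tnnt2 and Chrna1.

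**Figure D3:**
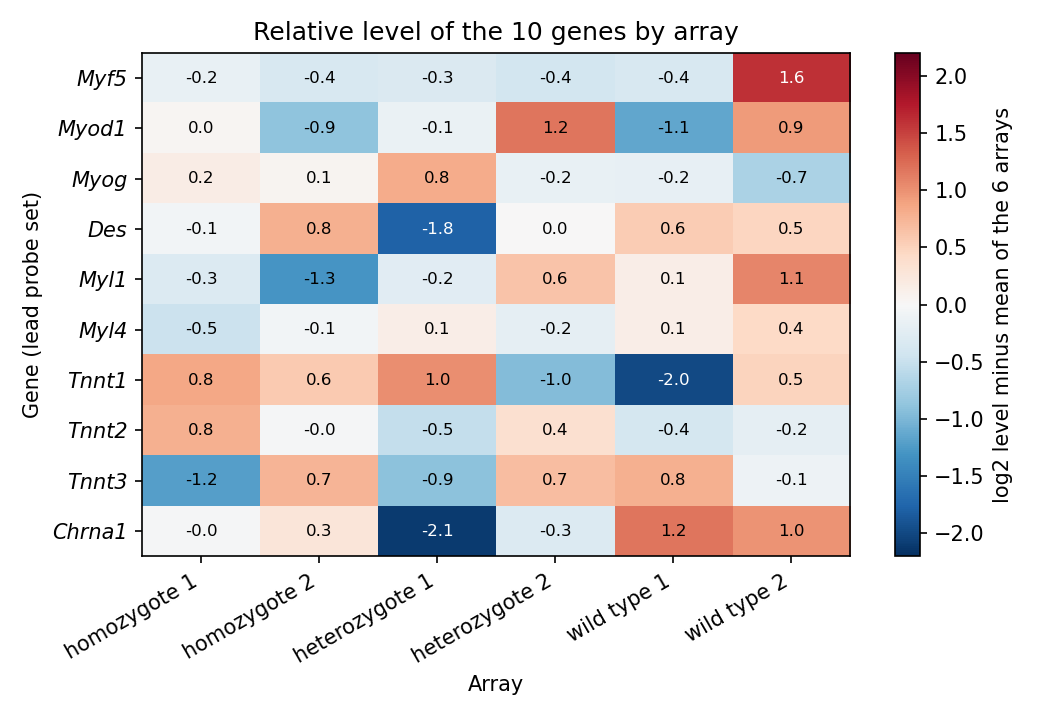
Level of the brightest probe set of each of the 10 genes (rows) on each array (columns), in log2 units relative to the gene's mean over the 6 arrays. Red is above the mean and blue below it. Columns of one genotype are often of opposite colour, as for Tnnt1 in heterozygous and wild-type cells.

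The mean of the Des, Myl4 and Tnnt2 profiles was lowest in heterozygote 1, at -0.72 relative to the 6 arrays, and between 0.06 and 0.24 elsewhere. The low value came from Des, at -1.78, and Tnnt2, at -0.53, while Myl4 was above its own mean there, by 0.14. Of 3214 genes with a range of at least 1 log2 unit, the 8 most like this mean were Mchr1, Slc43a1, Vps37b, Inpp5j, Folr1, Krt6a, Myrf and Slc17a9, with a Pearson r of 0.97 to 0.98 over 6 arrays. Each of the 8 was also lowest in heterozygote 1, such as Slc43a1 at 2.50 there, against 4.64 to 5.33 log2 units on the other arrays. In these 8 genes the likeness to the muscle genes therefore rests on 1 array.

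Other genes of the muscle programme were taken from 4 lists, with 81 of 84 genes matched to a probe set. Of these 28, or 34.6%, passed the filter, against 62.5% of all named genes. The 53 below it had mean intensities from 0.84 to 21.9. They included the precursor factors Pax3 and Pax7, the factor Myf6, the giant sarcomere proteins Ttn and Neb, the embryonic myosin Myh3, the muscle creatine kinase Ckm, the fusion protein Mymk and the fetal receptor subunit Chrng. None of the 28 tested genes was called by limma in any of the 4 comparisons, nor any of the 81 with all probe sets tested. In the stated comparison 0 of the 28 had an unadjusted p under 0.05, against 2.49% of all tested probe sets. With all probe sets tested, 8 of the 81 had one, or 9.88%, against 3.89% of all named genes and 4.9% of all probe sets. These 8 lay below the filter and are named after their values were seen. Actn2, Chrng and Trdn were higher in homozygous cells by the sign of the difference, and Eya2, Myh1, Myh4, Tcap and Mb lower, with limma adjusted p from 0.731 to 1. For heterozygous against wild-type cells 1 of the 28, Eno3, had an unadjusted p under 0.05 (log2 difference -1.68, limma adjusted p = 0.838), against 5.26% of all tested probe sets, and with all probe sets tested 7 of the 81 had one, or 8.64%, against 4.75% of all named genes. For homozygous against wild-type cells 6 of the 81 had one, or 7.41%, against 4.18% of all named genes. For homozygous against heterozygous cells 4 did, or 4.94%, against 3.79%. A larger share of the 81 than of all named genes lay below the filter, so these shares are not matched on level.

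Of the regulators, 10 of 16 matched genes passed, of which 5 were higher and 5 lower in homozygous cells by sign, with 0 called in each direction. They included the E proteins Tcf12 and Tcf3, which pair with myogenic factors, and Id1, Id2 and Id3, which block that pairing. Id2 was at 1015 and 354 in homozygous cells, 641 and 672 in heterozygous cells, and 261 and 318 in wild-type cells (log2 difference 0.55, SE 0.43, limma adjusted p = 1). Homozygote 1 was its highest array, as for Tnnt2. Mef2d, a partner of myogenic factors, differed by -0.13 (SE 0.20) and Tcf3 by -0.16 (SE 0.20).

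Of the sarcomere genes 10 of 32 passed, with 5 higher and 5 lower by sign and 0 called. The tropomyosins Tpm1, Tpm2 and Tpm3, which fibroblasts also express, were among them, and the fast light chain Mylpf was at 32.7 and 24.4 in homozygous cells, 16.2 and 28.0 in heterozygous cells, and 24.5 and 23.7 in wild-type cells (0.33, SE 0.24). Tnnc1, the slow and cardiac troponin C, differed by -0.27 (SE 0.26) and the muscle methyltransferase Smyd1 by 0.35 (SE 0.26).

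Of the genes of the synapse and of calcium handling 3 of 19 passed, all 3 lower by sign and 0 called. Chrnb1, the beta subunit that assembles with Chrna1, was at 37.1 and 71.2 in homozygous cells, 28.8 and 66.1 in heterozygous cells, and 84.2 and 68.5 in wild-type cells (-0.14, SE 0.41). Like Chrna1 it was lowest in heterozygote 1 and highest in wild type 1. The junctophilins Jph1 and Jph2, which tie the calcium store to the surface membrane, differed by -0.24 (SE 0.50) and -0.10 (SE 0.38).

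Of the genes of fusion, membrane and metabolism 5 of 14 matched genes passed, all 5 lower by sign and 0 called. Eno3, the muscle enolase, was at 136 and 404 in homozygous cells, 112 and 249 in heterozygous cells, and 704 and 353 in wild-type cells (-0.25, SE 0.53). Dysf, the membrane repair protein dysferlin, differed by -0.53 (SE 0.40) and the laminin receptor subunit Itga7 by -0.26 (SE 0.30). Each of the 12 genes named from the lists had a limma adjusted p of 1. For heterozygous against wild-type cells, 19 of the 28 genes were lower by sign, or 67.9%, against 49.8% of all 11373 tested genes. These were the 10 sarcomere genes, the 3 of the synapse and calcium handling, the 5 of fusion, membrane and metabolism, and 1 regulator, while 9 regulators were higher. For homozygous against wild-type cells 19 of the 28 were lower, against 52.5% of all tested genes, and for homozygous against heterozygous cells 12 were, against 52.9%. These comparisons share arrays. Wild type 1 was the highest array for 14 of the 28 genes, or 50%, where it was highest for 24.3% of all tested genes. Heterozygote 1 was the lowest for 9 of the 28, or 32.1%, against 16.4%. Over all 81 matched genes wild type 1 was highest for 29, or 35.8%, against 23.2% of all named genes, and heterozygote 1 lowest for 18, or 22.2%, against 16.7%. Of the 10 muscle lineage genes wild type 1 was highest for 2. Markers of other cells also stood out in wild type 1. The smooth muscle markers summed to 13346 and the neural and glial ones to 2436 there, the highest of the 6 arrays, and the fibroblast markers to 57305, the lowest. Their part in the levels of the muscle genes was not tested.

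**Figure D4:**
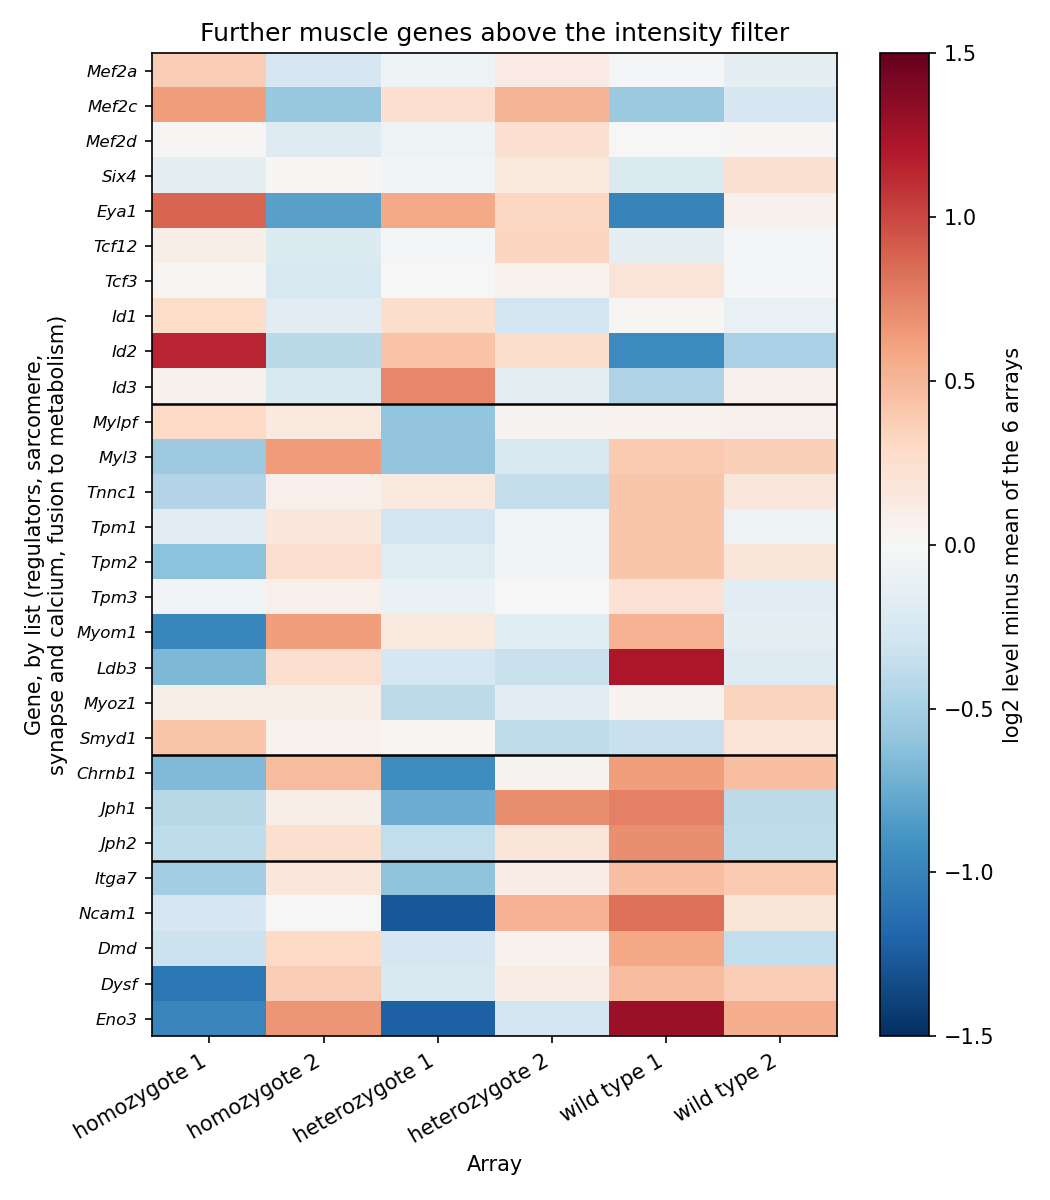
Level of the 28 further muscle genes that passed the intensity filter (rows, by list) on each array (columns), in log2 units relative to the gene's mean over the 6 arrays. Red is above the mean and blue below it, and wild type 1 is the highest array for 14 of the genes.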

How the data were processed

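Total RNA (2 µg per array, per the labels) was measured on Affymetrix mouse arrays. The authors deposited probe set intensities on a linear scale, as judged from their range. How probes were summarised and scaled, and the genome build, is not stated in the sources used here. A pseudocount of 1.78 (the 10th percentile of all values) was added before the log2 step, and arrays were quantile normalized because their log2 medians spanned 0.29. Of 45037 probe sets that were not controls, the 22519 with the higher mean log2 level (50%) were tested. Gene symbols came from a platform annotation table and were updated by Entrez identifier. Probe sets with 1 symbol were used, and the brightest stood for its gene. A genotype-means model of all 6 arrays was fitted in limma 3.58.1 (R 4.3.3), with 3 residual and 3.28 prior degrees of freedom. Benjamini-Hochberg adjustment ran over all tested probe sets, with a threshold of 0.05. Values of probe sets below the filter come from the same model on all 45037. The model was run on simulated data with a common spread for all probe sets. That run checks the recovery of a simulated difference and not the error rate of the calls in these data.

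From each muscle list the 3 genes with the smallest unadjusted p above the filter were named, and the 8 genes most like the mean of the muscle genes above the filter. The members and lists were chosen with earlier results of these data known. Alternatives were no quantile normalization, a pseudocount of 16, no filter, averaged probe sets, a replicate block and leaving out each array. P-values measure the spread between embryos of a genotype, moderated by limma with the spread of other probe sets. In wild-type cells this spread includes the unlike sex-linked pattern of the arrays. The 2 arrays per genotype limit the precision. Sequences are from RefSeq.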

Additional observations from a re-analysis of the deposited data

How the results depend on the processing

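In each of the 4 comparisons limma called 0 probe sets of the muscle genes under every alternative that gave a count: without quantile normalization, with a pseudocount of 16, without the intensity filter (15 probe sets tested), with the replicate block, and without each array in turn. With averaged probe sets none of the 10 genes passed the filter, so this gave no count. Des for homozygous against wild-type cells was -0.16 as reported, 0.34 with averaged probe sets, where its second probe set has equal weight, and -0.58 to 0.26 with single arrays left out. Tnnt2 for heterozygous against wild-type cells was 0.21, and -0.23 to 0.66 with single arrays left out. The other differences of Des, Myl4 and Tnnt2 kept their sign under all of these alternatives. For the 7 genes below the filter, 5 of 140 values under the settings that kept all arrays and 12 of 168 with an array left out moved by more than the SD between replicates, and 1 of the 140 and 21 of the 168 changed sign. In the stated comparison these were Chrna1, 0.18 as reported, -0.04 with a pseudocount of 16 and -0.27 without heterozygote 1, Tnnt3, 0.62 without homozygote 1 and 0.05 without heterozygote 2, Myf5, 0.10 without wild type 2, and Myog, -0.07 without heterozygote 2. No pairing of arrays with the same replicate number was seen, since the differences between replicates 1 and 2 correlated at -0.14, -0.14 and -0.36 between genotypes over 22519 probe sets, and the replicate block called 0. With 2 arrays per genotype, setting unlike replicate numbers of 2 genotypes side by side reverses the sign of their correlation. Each correlation is then positive, most so for heterozygous with wild-type cells, but no single pairing makes all of them positive at once. A block with unlike replicate numbers was not fitted. With no detection calls at hand, probe sets near the floor set a limit on what can be said about the myogenic factors.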
